A study of Mus musculus with 12 samples.

Results

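RNA of adult cardiomyocytes (CMs, the muscle cells whose beating drives the heart) was compared between Srf knockout (KO) and control (CTRL) mice at postnatal day 90 (P90), 30 days after Srf was deleted. The comparison used 6 of the 12 samples of the series, 3 KO and 3 CTRL, and 11808 of the 23337 listed genes had enough counts to be tested. KO animals were Srf-flox/flox and CTRL animals were Srf-flox/+, so that a CTRL CM also lost its floxed copy and kept a single intact copy of Srf. All animals also carried a fluorescent protein reporter switched on by Cre, and all received AAV9-cTNT-Cre at P60, a virus that expresses Cre recombinase from the cardiac troponin T promoter, which is active in CMs. Per the study's methods, the dose was low, so that transduced CMs were scattered among CMs that were not, and fluorescent CMs were sorted from the heart apex after collagenase perfusion. The genetic background was mixed. Each sample was a biological replicate, and the other samples of the series, KO and CTRL CMs at P14 after virus at P1, were used only to ask whether the adult changes were also seen there.

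Serum response factor (SRF) is a transcription factor that binds a short A/T-rich element, the CArG box, in front of genes of the actin cytoskeleton and in front of immediate early genes. Its activity depends on partners. Myocardin and the myocardin-related factors sense the pool of free actin and switch on cytoskeletal and contractile genes, whereas ternary complex factors of the Elk family respond to growth signals and switch on immediate early genes such as Fos and Egr1. In the developing heart SRF is required for the assembly of sarcomeres. These are the repeated contractile units of thin actin filaments and thick myosin filaments that are anchored at Z-discs. After adult deletion the study reported minor defects of sarcomere organisation.

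The 6 libraries held 9740389 to 23103460 counts, and 3 counts corresponded to 0.129 to 0.304 CPM, the unit of normalised counts used below, in which each count is scaled to the depth of its library. The first principal component of the 500 most variable genes held 36.1% of the variance and placed the KO samples at 3.56 to 9.80 and the CTRL samples at -9.45 to -4.13. Counts of 4 Y-linked genes summed to 3299 in CTRL replicate 3 and to 0 in each of the other 5 samples, so a single CTRL sample was from a male. The labelled cell type was checked with 10 markers of ventricular CMs, among them Myh6, Actc1 and Ttn, which summed to 114000 to 128000 CPM in CTRL and 97500 to 102000 CPM in KO. Markers of other cells were low: 10 endothelial genes summed to 244 to 315 CPM in CTRL and 250 to 375 CPM in KO, 10 fibroblast genes to 111 to 144 CPM and 97.5 to 159 CPM, 10 myeloid genes to 6.96 to 15.5 CPM and 9.68 to 12.0 CPM, and 8 lymphocyte and 6 erythroid genes to under 1 CPM in every sample. A sum of 10 smooth muscle and pericyte genes was 681 to 895 CPM in CTRL and 504 to 579 CPM in KO, and most of it was Abcc9, a subunit of a potassium channel that CMs also hold, and Acta2, itself a known SRF target. A sum of 8 atrial CM genes was 206 to 345 CPM in CTRL and 672, 163 and 222 CPM in KO, with the high value in KO replicate 1. Of all these marker genes, Actc1 was the only one past the threshold used below.

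Srf, the deleted gene, checks the labels. The gene spans 46546839 to 46556162 on the minus strand of chromosome 17 in mm10. It was at 66.2, 55.2 and 75.8 CPM in the CTRL samples and at 30.9, 26.9 and 26.3 CPM in the KO samples. All KO samples lay below all CTRL samples, and the KO mean was 42.6% of the CTRL mean. The log2 fold change was -1.23 ± 0.13 (SE, n = 3 per group), with an adjusted p-value of 0.00347. Counts were summed over the whole gene, so reads from the parts of the locus that Cre left in place are included, and CTRL already lacked a copy. Of 15 genes for SRF and its cofactors, Srf was the only one that passed. Tead1, a partner of the YAP co-activator, was at 44.2, 44.3 and 55.2 CPM in CTRL and 34.6, 30.02 and 39.3 CPM in KO (adjusted p = 0.126), and Elk4, a ternary complex factor, gave -0.51 ± 0.21 on the log2 scale (adjusted p = 0.259).

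The promoters of the genes that fell are shown where they hold a CArG box, since SRF is known to bind this element. RefSeq promoters (mouse build GRCm38.p6, which is mm10) were matched for all 18 genes that fell and for 23 of the 28 that rose. The 250 bases before the gene start held a CArG box, read on either strand, in 4 of the 18 genes that fell (Srf, Actc1, Actg1 and Stbd1) and in 0 of the 23 that rose. Srf was itself deleted, so its deletion and a response to SRF loss cannot be told apart in its fall. Among all genes tested with a matched promoter, 135 of 9432 (1.43%) held a box, so 0 of 23 does not set the genes that rose apart. A match is a run of letters and not a measured binding site. The stretches below run 5′ to 3′ on the strand of the gene with the boxes in capitals. Srf itself holds a pair of boxes, which end 72 and 52 bases before its start. The box ends 37 bases before the start of Actc1, 80 bases before that of Actg1 and 26 bases before that of Stbd1.
Srf, chr17:46556185-46556274, minus strand: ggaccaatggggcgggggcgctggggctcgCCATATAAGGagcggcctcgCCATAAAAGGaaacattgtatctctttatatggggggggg
Actc1, chr2:114052883-114052952, minus strand: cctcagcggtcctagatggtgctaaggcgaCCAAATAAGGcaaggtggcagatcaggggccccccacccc
Actg1, chr11:120348546-120348615, minus strand: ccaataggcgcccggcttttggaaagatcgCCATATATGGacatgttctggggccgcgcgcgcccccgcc
Stbd1, chr5:92602985-92603050, plus strand: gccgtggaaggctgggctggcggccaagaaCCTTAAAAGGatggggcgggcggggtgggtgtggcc

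Across all genes, 46 of 11808 (0.39%) passed the threshold (Benjamini-Hochberg adjusted p under 0.05 in the quasi-likelihood test of edgeR), 28 of them higher in KO (0.237%) and 18 lower (0.152%). The genes that fell included Srf, actins and other muscle genes, an ion channel subunit and a calcium exchanger, and enzymes of energy and amino acid metabolism. The genes that rose were led by Itgb1bp3, an enzyme of NAD synthesis, and otherwise held stress and signalling genes, heat shock genes, secreted matrix proteins and a few sarcomere genes. Changes were moderate: the absolute log2 fold change of the 46 genes ranged from 0.50 to 2.97, and 14 of them, 11 higher and 3 lower, changed over 2-fold. In all 46 the KO samples did not overlap the CTRL samples, which was also the case for 21.5% of all genes tested. DESeq2 called 312 of 10889 genes (2.87%), 148 higher (1.36%) and 164 lower (1.51%), and all 46 were among them. At an unadjusted p-value under 0.05 there were 1910 genes (16.2%). The count depended on single samples: 6 genes passed without KO replicate 2, 16 without CTRL replicate 3 and 25 without CTRL replicate 1. Of the 46 genes, 5 still passed without KO replicate 2 (Srf, Kcnip2, Tob2, Ntn4 and Itgb1bp3), 14 without CTRL replicate 3 and 21 without CTRL replicate 1, and none turned its direction.

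**Figure D1:**
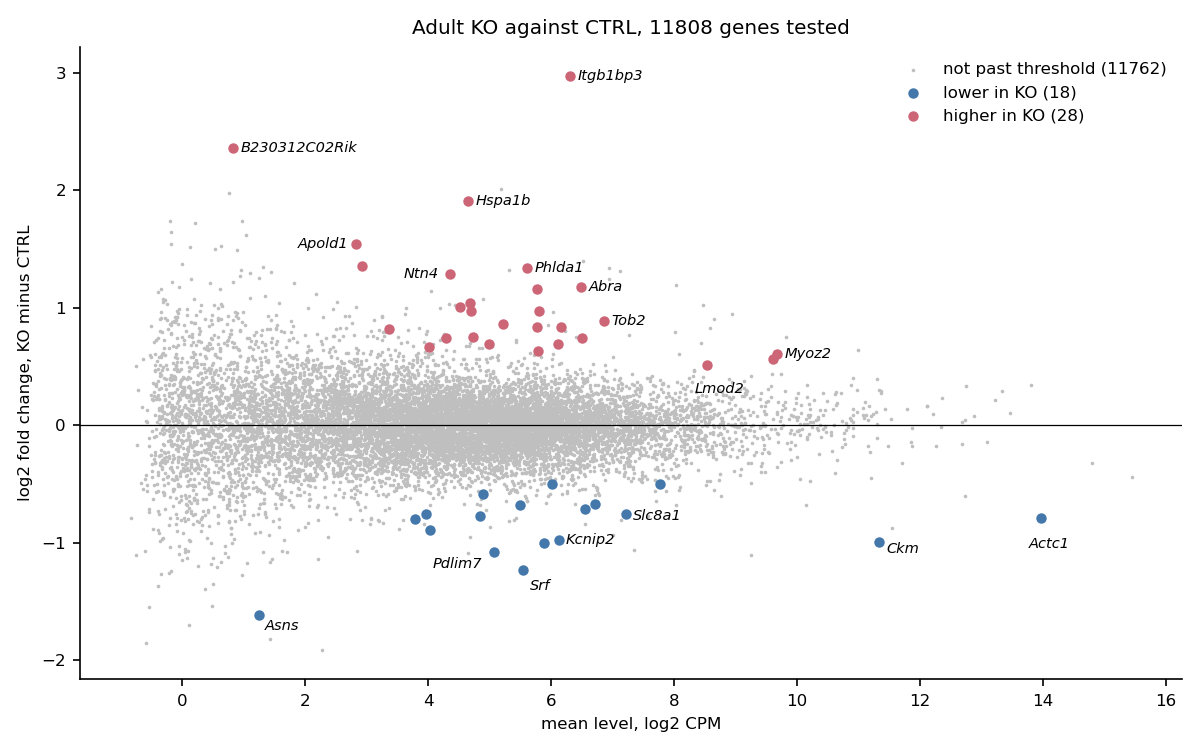
Log2 fold change (KO minus CTRL, y axis) against mean level (log2 CPM, x axis) for the 11808 genes tested in adult CMs, grey points being genes not past the threshold, red points the 28 genes higher in KO and blue points the 18 genes lower in KO. Itgb1bp3 stands above all other genes at 2.97, and Actc1 and Ckm are the most abundant genes that fell.

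The actin genes Actc1 and Actg1 fell in KO. Actc1, cardiac alpha-actin and the main actin of the adult thin filament, was at 23080, 17950 and 20020 CPM in CTRL and at 14450, 11020 and 9852 CPM in KO. No KO sample reached the lowest CTRL sample, and the log2 fold change was -0.79 ± 0.14 (SE, adjusted p = 0.0494). Actg1, a cytoplasmic actin, was at 113.5, 108 and 129 CPM in CTRL and at 78.5, 72.8 and 62.6 CPM in KO, again without overlap, with a log2 fold change of -0.71 ± 0.11 (SE, adjusted p = 0.0280). Of the 6 actin genes, 5 were tested, 2 passed and all 5 were below 0, with a median log2 fold change of -0.79 against 0.01 over all genes tested. The other three did not pass. Acta2, smooth muscle actin, was at 322, 161 and 181 CPM in CTRL and 128.5, 100.8 and 89.0 CPM in KO (adjusted p = 0.0762), Acta1, skeletal alpha-actin, varied widely within both groups (412 to 1111 CPM in CTRL and 243.5 to 537 CPM in KO, adjusted p = 0.152), and Actb, the other cytoplasmic actin, gave -0.45 ± 0.21 (adjusted p = 0.311). Per length, Actc1 made up 94.9% to 97.8% of Actc1 plus Acta1 transcripts in CTRL and 96.4% to 97.9% in KO, ranges that overlap, while the sum of the pair was 28230 to 33620 TPM (counts per exon length, scaled to the same total in every sample) in CTRL and 15800 to 19670 TPM in KO.

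**Figure D2:**
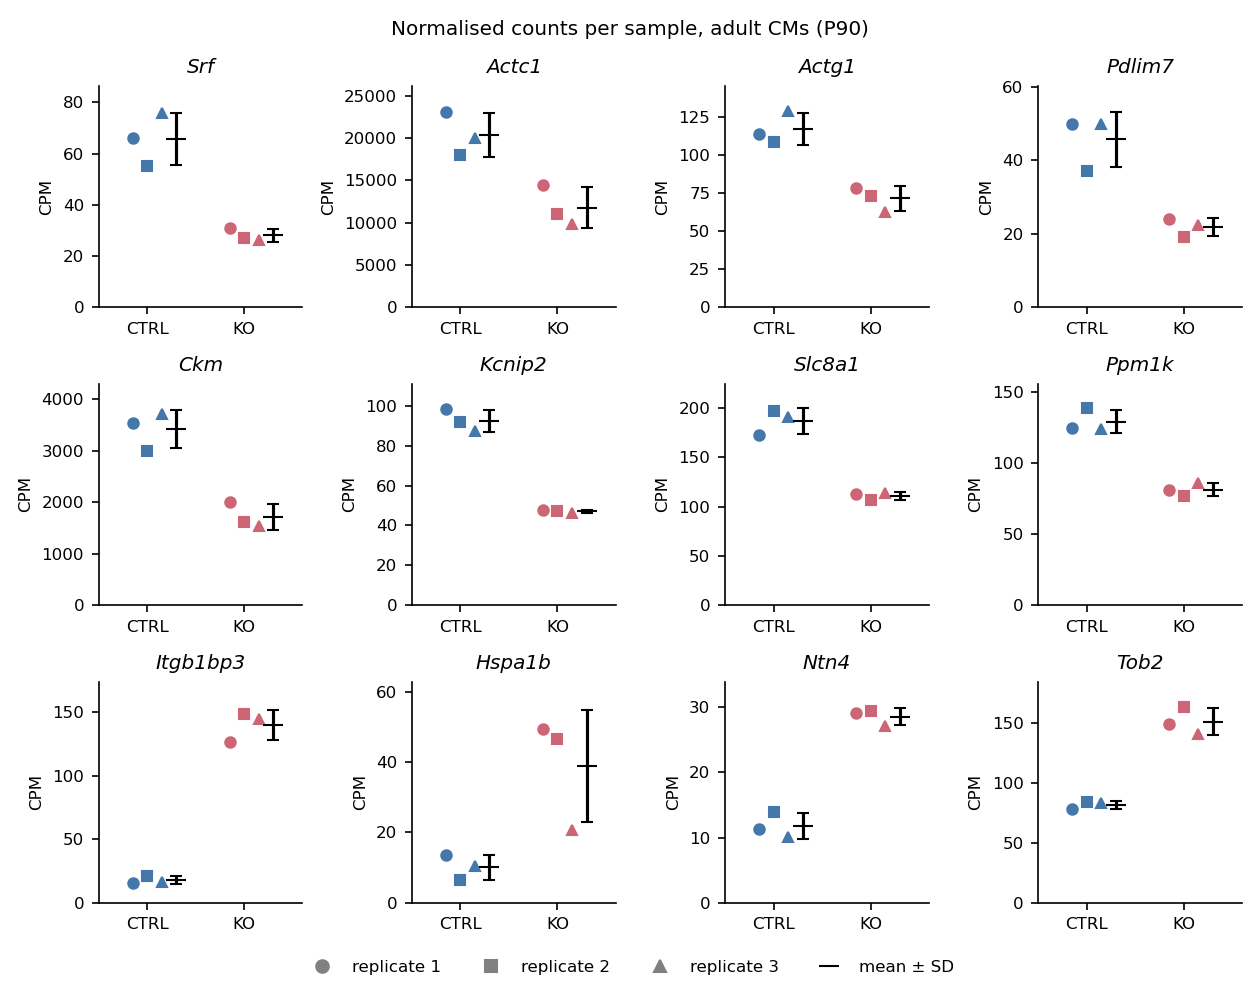
CPM of 12 genes (y axis, from 0) in each CTRL (blue) and KO (red) sample, with symbols for replicates and black bars for the mean ± SD of 3 samples. The upper 8 panels show genes that fell and the lowest 4 panels genes that rose, and in every panel the KO samples lie apart from the CTRL samples, as for Srf with 26.3 to 30.9 CPM in KO and 55.2 to 75.8 CPM in CTRL.

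Outside the actins, the muscle genes that fell belonged to the Z-disc, to energy transfer and to the control of the membrane potential and calcium. Pdlim7, a PDZ and LIM domain protein that binds the actin cytoskeleton at Z-discs, was at 49.95, 37.2 and 50.05 CPM in CTRL and at 24.0, 19.1 and 22.3 CPM in KO. Ckm, the muscle creatine kinase that buffers ATP in the myofibril, was at 3536, 3001 and 3721 CPM in CTRL and at 1999, 1618 and 1531 CPM in KO. The KO means were 47.6% and 50.2% of the CTRL means, with log2 fold changes of -1.08 ± 0.14 (adjusted p = 0.00855) and -0.99 ± 0.12 (adjusted p = 0.00755). Kcnip2, the accessory subunit of the channels that carry the transient outward potassium current, varied little within each group. It was at 98.4, 91.7 and 87.4 CPM in CTRL and at 47.7, 47.05 and 46.4 CPM in KO, and its log2 fold change was -0.98 ± 0.09 (adjusted p = 0.00225). Slc8a1, the sodium-calcium exchanger NCX1 that removes calcium from the CM, was at 172, 197 and 191 CPM in CTRL and at 113, 106 and 114 CPM in KO. Its log2 fold change of -0.75 ± 0.09 (adjusted p = 0.00755) moved to -0.32 (adjusted p = 0.303) when the trend of the fold change with exon length was removed, and its exons sum to 18599 bp.

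Further genes that fell act in metabolism. Ppm1k, the mitochondrial phosphatase that switches on the breakdown of branched-chain amino acids, was at 125, 138 and 124 CPM in CTRL and at 80.8, 76.5 and 85.8 CPM in KO (log2 fold change -0.67 ± 0.09, adjusted p = 0.0167). Stbd1, a glycogen-binding protein, was at 22.3, 21.0 and 20.6 CPM in CTRL and at 14.3, 10.7 and 9.51 CPM in KO (-0.89 ± 0.16, adjusted p = 0.0454). Neither gene overlapped between the groups. Ppp1r3a, which targets protein phosphatase 1 to glycogen, went the same way, from 251.8 to 261 CPM in CTRL to 173 to 191 CPM in KO (-0.50 ± 0.09, adjusted p = 0.0454), and did not pass after the length trend was removed (adjusted p = 0.103). Asns, asparagine synthetase, had the largest decrease of the genes that passed but a low level, at 3.65, 3.14 and 3.62 CPM in CTRL and 0.944, 0.989 and 1.56 CPM in KO (-1.61 ± 0.28, adjusted p = 0.0428).

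The remaining genes that fell were of mixed kinds. Heca, a regulator of cell division, was at 48.9, 59.6 and 59.2 CPM in CTRL and 32.6, 35.4 and 36.5 CPM in KO. Fstl4, a follistatin-like secreted protein, was at 20.3, 16.7 and 21.5 CPM in CTRL and 10.9, 12.6 and 11.4 CPM in KO. Their log2 fold changes were -0.68 ± 0.11 (adjusted p = 0.0314) and -0.75 ± 0.14 (adjusted p = 0.0494). The neighbouring genes Gm14420 (current symbol Zfp970) and Gm14403 lie in a cluster of zinc finger genes on chromosome 2 whose copies resemble each other, so their counts are uncertain. Gm14420 was at 80.6, 67.8 and 87.7 CPM in CTRL and 40.6, 36.7 and 41.1 CPM in KO, and Gm14403 at 41.2, 33.6 and 33.9 CPM in CTRL and 24.7, 19.4 and 19.9 CPM in KO. Their log2 fold changes were -0.9997 ± 0.11 (adjusted p = 0.00502) and -0.77 ± 0.13 (adjusted p = 0.0428). Fv1, a gene of retroviral origin that restricts mouse leukaemia viruses and is known to differ between mouse strains, was at 17.6, 16.8 and 18.3 CPM in CTRL and 9.21, 10.3 and 10.9 CPM in KO (-0.80 ± 0.13, adjusted p = 0.0314). Kbtbd12, a kelch protein, gave -0.59 ± 0.11 (adjusted p = 0.0485) and Rps6ka2, a ribosomal S6 kinase, -0.50 ± 0.09 (adjusted p = 0.0485, and 0.0830 with the length trend removed). Together, the 18 genes took 2.22% to 2.78% of CPM in CTRL and 1.21% to 1.72% in KO.

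Among the genes that rose, Itgb1bp3 stood apart. Itgb1bp3, also called Nmrk2, encodes the muscle form of nicotinamide riboside kinase, which makes the precursor of NAD from nicotinamide riboside. It was at 15.9, 21.2 and 16.7 CPM in CTRL and at 126, 148 and 144 CPM in KO. The KO mean was 7.79-fold the CTRL mean, far outside the spread within either group, and the log2 fold change was 2.97 ± 0.13 (SE, adjusted p = 1.4e-06). Itgb1bp3 and Tob2 were the only genes that passed in the main fit and in all 16 other fits. Of 23 tested genes of NAD synthesis and use, Itgb1bp3 was the only one past the threshold. Nampt, the enzyme that recycles nicotinamide in the other route to NAD, was at 222, 244 and 191 CPM in CTRL and 194, 174 and 176.5 CPM in KO, with overlapping groups (-0.27 ± 0.11, adjusted p = 0.253). Per length, Itgb1bp3 was at 16.8, 24.6 and 18.6 TPM in CTRL, below Nampt at 95.1, 115 and 86.02 TPM, and at 125, 158 and 168 TPM in KO, above Nampt at 78.0, 74.8 and 83.4 TPM. The median log2 fold change of the list was -0.05.

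Many of the other genes that rose are regulators of transcription, signalling or stress. Phlda1, a pleckstrin homology-like protein induced by growth signals and stress, was at 28.5, 20.2 and 33.7 CPM in CTRL and at 89.2, 64.9 and 55.3 CPM in KO (log2 fold change 1.34 ± 0.20, adjusted p = 0.0251). Ddit4, an inhibitor of the growth kinase mTORC1, was at 14.3, 16.7 and 19.1 CPM in CTRL and at 32.1, 34.9 and 35.7 CPM in KO (1.04 ± 0.13, adjusted p = 0.00755). In both genes the lowest KO sample was well above the highest CTRL sample. Tob2, an antiproliferative protein that also promotes mRNA deadenylation, was at 78.0, 83.9 and 83.6 CPM in CTRL and at 149, 163 and 141 CPM in KO (0.88 ± 0.09, adjusted p = 0.00347). Cebpb, a transcription factor of stress and growth responses, was at 44.05, 27.7 and 39.6 CPM in CTRL and at 70.7, 70.4 and 79.2 CPM in KO (0.97 ± 0.15, adjusted p = 0.0257). Abra, a muscle protein that binds actin and is known to promote SRF activity, was at 47.2, 45.9 and 71.9 CPM in CTRL and at 94.4, 153 and 126 CPM in KO (1.18 ± 0.20, adjusted p = 0.0374).

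A pair of genes of the NF-kappaB pathway rose. Nfkbia, the inhibitor that holds NF-kappaB in the cytoplasm, was at 13.6, 20.3 and 18.8 CPM in CTRL and at 33.9, 35.8 and 32.5 CPM in KO (0.97 ± 0.15, adjusted p = 0.0251). Relb, an NF-kappaB subunit, was at 7.01 to 7.501 CPM in CTRL and 11.03 to 14.0 CPM in KO (0.82 ± 0.15, adjusted p = 0.0494). These genes were noticed among the genes that passed and were on no list. Cenpa, the histone variant of centromeres, was at 26.1, 23.0 and 29.6 CPM in CTRL and at 48.3, 47.8 and 47.4 CPM in KO (0.86 ± 0.11, adjusted p = 0.00855), whereas 7 markers of proliferating cells such as Mki67 summed to 1.20 to 2.53 CPM in CTRL and 0.826 to 1.78 CPM in KO.

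Some genes that rose are also known from endothelial cells. Klf2, a transcription factor that responds to blood flow there, was at 14.5, 14.8 and 15.97 CPM in CTRL and at 26.6, 33.9 and 30.5 CPM in KO (1.01 ± 0.13, adjusted p = 0.00755). Apold1, an early response gene, was at 3.79, 4.36 and 2.44 CPM in CTRL and at 7.73, 11.7 and 11.1 CPM in KO (1.54 ± 0.24, adjusted p = 0.0257). Neither overlapped between the groups, and the KO means were 2.01-fold and 2.89-fold the CTRL means. Adamts1, a secreted metalloproteinase, was at 30.1, 34.3 and 36.7 CPM in CTRL and at 56.3, 105.5 and 63.5 CPM in KO (1.16 ± 0.20, adjusted p = 0.0454). The 10 endothelial markers, of which 9 were above 0 and 0 passed, had overlapping sums in the groups as given above, with the lowest KO sum in replicate 1 (250 CPM), and the part of such cells in these genes was not tested.

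Among secreted and adhesion proteins, Ntn4, a netrin of basement membranes, was at 11.3, 14.0 and 10.1 CPM in CTRL and at 29.2, 29.4 and 27.04 CPM in KO (1.29 ± 0.14, adjusted p = 0.00347). Fbln1, a matrix glycoprotein, was at 43.1 to 60.03 CPM in CTRL and 84.2 to 98.7 CPM in KO (0.84 ± 0.13, adjusted p = 0.0251). Nedd9, a scaffold of focal adhesions, gave 0.75 ± 0.12 (adjusted p = 0.0314). The sum of 10 fibroblast markers overlapped between the groups, at 111 to 144 CPM in CTRL and 97.5 to 159 CPM in KO, and 0 of them passed.

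The heat shock genes Hspa1b and Hsp90aa1 rose in KO, with replicate 3 lower than the other KO samples. Hspa1b, an inducible HSP70, was at 13.6, 6.49 and 10.3 CPM in CTRL and at 49.6, 46.5 and 20.6 CPM in KO (1.90 ± 0.32, adjusted p = 0.0374). Its near-identical copy Hspa1a was at 17.9, 4.97 and 18.8 CPM in CTRL and 70.3, 73.8 and 28.3 CPM in KO and did not pass (2.01 ± 0.41, adjusted p = 0.0642). Reads can be split between these copies, so their separate values are uncertain. Hsp90aa1, the inducible HSP90, was at 55.4, 64.7 and 82.4 CPM in CTRL and at 118, 115 and 106 CPM in KO (0.75 ± 0.13, adjusted p = 0.0494). Dnajb1, an HSP70 co-chaperone, was at 51.8, 35.6 and 63.7 CPM in CTRL and 161, 164 and 73.7 CPM in KO and did not pass (adjusted p = 0.0585). Of 36 tested heat shock and chaperone genes, 2 passed, both higher, and 23 were above 0, with a median log2 fold change of 0.13 that became 0.04 when the length trend was removed.

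The sarcomere genes that rose included Myoz2 and Lmod2, and Myl12a of the non-muscle myosin rose as well. Myoz2, a Z-disc protein that binds calcineurin, was at 610 to 676 CPM in CTRL and 887 to 1067 CPM in KO (0.61 ± 0.10, adjusted p = 0.0314). Lmod2, a leiomodin that lengthens thin filaments, was at 300 to 310 CPM in CTRL and 398 to 458 CPM in KO (0.51 ± 0.09, adjusted p = 0.0485). Myl12a, a regulatory light chain, gave 0.56 ± 0.10 (adjusted p = 0.0409, and 0.0512 with the length trend removed). Other genes that rose were Ppia, the cyclophilin A prolyl isomerase (0.84 ± 0.14, adjusted p = 0.0374), Ndrg3 (0.75 ± 0.11, adjusted p = 0.0251), Alpl, an alkaline phosphatase (0.69 ± 0.09, adjusted p = 0.00855), and 3632451O06Rik, whose current symbol is Armh4 (0.63 ± 0.10, adjusted p = 0.0273). The exons of 5 of the genes that rose overlap those of another gene, so that the source of their reads is uncertain where the strand was not used. They are B230312C02Rik (0.203 to 0.624 CPM in CTRL and 2.32 to 3.25 CPM in KO), which overlaps Gm6307, 4930513N10Rik (3.10 to 4.65 CPM and 7.501 to 13.2 CPM), which overlaps Cnot1, Cryz, a quinone reductase (0.66 ± 0.12, adjusted p = 0.0494), which overlaps Tyw3, Adora1, the A1 adenosine receptor (0.69 ± 0.12, adjusted p = 0.0485), which overlaps Mybph, and Nfkbia, which overlaps a microRNA gene. The 28 genes together took 0.222% to 0.232% of CPM in CTRL and 0.361% to 0.402% in KO.

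Known SRF targets were then described as lists, beside all genes tested. Of 45 tested cytoskeletal SRF targets, 5 passed, 1 higher (Lmod2) and 4 lower (Pdlim7, Ckm, Actc1 and Actg1), and 27 were below 0, with a median log2 fold change of -0.14. DESeq2 called 4 higher and 7 lower. Members next in order of p were Smyd1, a muscle histone methyltransferase (225, 214 and 287 CPM in CTRL and 117, 139 and 169 CPM in KO, adjusted p = 0.0554), Cnn2, a calponin (53.3 to 64.7 CPM and 34.1 to 44.1 CPM, adjusted p = 0.0554), and Dmd, dystrophin (122 to 142.5 CPM and 73.7 to 99.9 CPM, adjusted p = 0.0585). These were lower in all KO samples than in any CTRL sample without passing. Tmsb4x, thymosin beta 4, which holds free actin monomers, was higher, at 35.03, 33.9 and 27.6 CPM in CTRL and 45.3, 61.0 and 53.6 CPM in KO (0.73 ± 0.13, adjusted p = 0.0516). Csrp3, a muscle LIM protein of the Z-disc, was also higher without passing, at 0.40 ± 0.10 (adjusted p = 0.121). A CArG box was found in 11 of the 42 members whose promoters were matched, with a median log2 fold change of -0.49 in these and of -0.14 in the others. Over all genes tested with a matched promoter, these medians were -0.06 and 0.01.

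The immediate early SRF targets, in contrast, lay mostly above 0. Of 30 tested, 28 were above 0, with a median log2 fold change of 0.75 against 0.01 over all genes, but Klf2 was the only one that passed higher and Srf the only one that passed lower. Fos, which pairs with Jun in the AP-1 transcription factor, was at 105, 191 and 182 CPM in CTRL and at 243, 501 and 348 CPM in KO. The groups did not overlap, yet the spread within KO was wide, and it did not pass (1.20 ± 0.26, adjusted p = 0.0740). Junb, another AP-1 member, was at 40.5, 62.2 and 61.5 CPM in CTRL and 88.1, 105.5 and 92.1 CPM in KO (0.81 ± 0.15, adjusted p = 0.0554), and Cyr61, a secreted matrix protein, at 231, 362 and 418 CPM and 536, 853 and 559 CPM (0.95 ± 0.22, adjusted p = 0.0888). In 16 of the 30 genes all KO samples were above all CTRL samples, as in 10.8% of all genes tested in that direction, and DESeq2 called 8 higher. Over the list, the mean of log2(CPM + 0.5) relative to the CTRL mean was -0.27, 0.04 and 0.22 in CTRL and 0.36, 0.95 and 0.55 in KO, so KO replicate 2 was highest and CTRL replicate 1 lowest. A CArG box was found in 4 of the 25 members whose promoters were matched, Srf, Egr2, Dusp5 and Zfp36. The median log2 fold change was 0.51 in these, which include the deleted gene Srf at -1.23, and 0.79 in the others. Members with a box thus also lay mostly above 0 here.

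**Figure D3:**
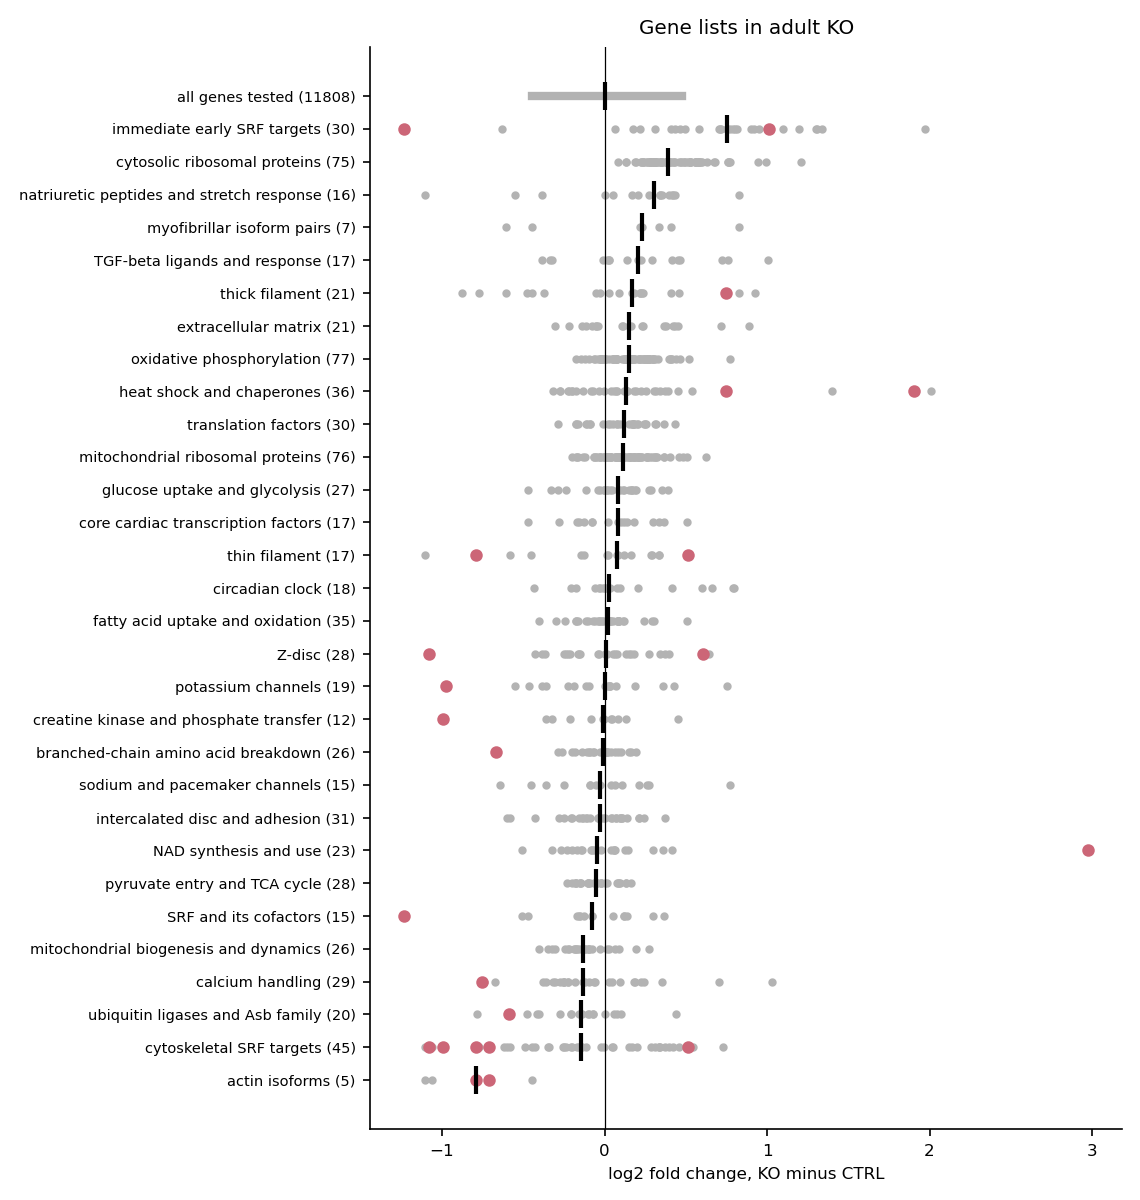
Log2 fold change (KO minus CTRL, x axis) of the members of 30 gene lists (y axis, with the number of genes tested), ordered by median, grey points being members not past the threshold, red points members past it and black ticks the list medians. The grey bar at the top spans the 5th to the 95th percentile of all genes, and the actin isoforms lie lowest at a median of -0.79 and the immediate early SRF targets highest at 0.75.

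Within the sarcomere, adult KO CMs had mixed changes. Of 17 tested thin filament genes, 1 passed higher (Lmod2) and 1 lower (Actc1), with a median log2 fold change of 0.08 that turned to -0.01 with the length trend removed. DESeq2 called 1 higher and 2 lower. The troponin genes pointed in different directions without passing. Tnnc1, troponin C, was at 3019, 2460 and 2661 CPM in CTRL and 2329, 2002 and 1619 CPM in KO (adjusted p = 0.146), while Tnnt2, troponin T, was at 9235, 8762 and 9769 CPM and 12230, 11160 and 10670 CPM (adjusted p = 0.160) and Tnni3, troponin I, at 6384, 5327 and 6588 CPM and 8340, 7807 and 6951 CPM (adjusted p = 0.175). With the length trend removed, Tnnc1 gave -0.69 (adjusted p = 0.00207). Of 21 tested thick filament genes, 1 passed, the myosin chaperone Hsp90aa1, while DESeq2 called 2 higher and 5 lower. Myl3, the ventricular essential light chain, was at 8333, 7565 and 8651 CPM in CTRL and 6330, 5297 and 4514 CPM in KO, and its log2 fold change of -0.60 ± 0.12 (adjusted p = 0.0620) became -0.81 (adjusted p = 0.00117) with the length trend removed. Myh6, the adult alpha myosin heavy chain, was at 56500, 48770 and 49570 CPM in CTRL and 34740, 39160 and 39980 CPM in KO (-0.44 ± 0.10, adjusted p = 0.0793), and Myom1, which links thick filaments at the M-band, gave -0.48 ± 0.09 (adjusted p = 0.0554). For Ttn, titin, with 104320 bp of exons, the log2 fold change of -0.88 ± 0.20 (adjusted p = 0.0865) became -0.04 with the length trend removed.

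Of 28 tested Z-disc genes, 1 passed higher (Myoz2) and 1 lower (Pdlim7), and the median was 0.01. DESeq2 called 3 higher and 1 lower. Tcap, which caps titin at the Z-disc, was at 1520, 1543 and 1713 CPM in CTRL and 3027, 2534 and 1882 CPM in KO (0.64 ± 0.15, adjusted p = 0.0888), and Actn2, the alpha-actinin that crosslinks thin filaments there, gave 0.16 ± 0.09 (adjusted p = 0.382). Of the isoforms that change as CMs mature, 7 were tested and 0 passed, while DESeq2 called 2 lower. Myh7, the beta myosin heavy chain of the fetal heart, was at 334, 252 and 240 CPM in CTRL and 636, 292 and 541 CPM in KO (0.83 ± 0.24, adjusted p = 0.135), and per length it made up 0.483% to 0.591% of Myh6 plus Myh7 transcripts in CTRL and 0.743% to 1.81% in KO. The atrial light chains Myl7 and Myl4 were highest in KO replicate 1, at 60.1 and 50.04 CPM, and at 11.5 to 16.3 CPM in the other KO samples, against 9.50 to 42.4 CPM in CTRL. Tnni1, the fetal troponin I, had too few counts to be tested, at up to 0.406 CPM in CTRL and 0.520 CPM in KO. Natriuretic peptides and stretch response genes had 0 of 16 past the threshold. Nppa, the atrial natriuretic peptide, was at 151, 179 and 207 CPM in CTRL and 435.5, 97.8 and 146 CPM in KO, so KO replicate 1 was highest and the other KO samples lowest (0.34 ± 0.42, adjusted p = 0.727), and without KO replicate 1 the log2 fold change was -0.56. Nppb, the B-type peptide, was at 354, 227.5 and 387 CPM in CTRL and 234, 206 and 221 CPM in KO (-0.55 ± 0.17, adjusted p = 0.149).

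Of 29 tested calcium handling genes, Slc8a1 was the only one that passed, 19 were below 0, and the median was -0.13, or -0.05 with the length trend removed. Ryr2, the calcium release channel of the sarcoplasmic reticulum, was at 1377, 1347 and 1474 CPM in CTRL and 673, 930 and 1024 CPM in KO (-0.68 ± 0.14, adjusted p = 0.0627), and gave -0.31 (adjusted p = 0.140) with the length trend removed. Atp2a2, the pump that refills that store, was at 34730, 29990 and 30080 CPM in CTRL and 24800, 26890 and 24350 CPM in KO (-0.32 ± 0.09, adjusted p = 0.148). Cacna1h, a T-type calcium channel, was higher in each KO sample (17.7 to 20.0 CPM against 10.04 to 14.0 CPM, adjusted p = 0.0718), and Cacna1c, the L-type channel, overlapped between the groups (-0.25 ± 0.13, adjusted p = 0.351).

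Among 19 tested potassium channel genes, Kcnip2 was the only one that passed, and the median was 0.01. Kcnd2, a pore-forming subunit that Kcnip2 binds, was at 42.04, 43.4 and 39.7 CPM in CTRL and 32.6, 31.4 and 31.9 CPM in KO (-0.38 ± 0.10, adjusted p = 0.108). Abcc9, the sulfonylurea receptor of the ATP-sensitive channel, was at 432 to 528 CPM and 310 to 390 CPM (-0.46 ± 0.12, adjusted p = 0.108), and Kcnj2, of the inward rectifier, overlapped between the groups (adjusted p = 0.252). Of 15 sodium and pacemaker channel genes, 0 passed. Scn4b, an accessory sodium channel subunit, gave -0.64 ± 0.20 (adjusted p = 0.154).

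Among genes of energy metabolism, Ckm and Ppm1k passed. Of 12 tested creatine kinase and phosphate transfer genes and of 26 genes of branched-chain amino acid breakdown, these were the only ones past the threshold, and the medians were -0.01 in both lists. Ckb, the brain-type creatine kinase, was at 57.4 to 71.8 CPM in CTRL and 56.1 to 68.9 CPM in KO. Ampd3, an AMP deaminase, was at 84.9 to 99.4 CPM in CTRL and 72.3 to 74.1 CPM in KO (-0.36 ± 0.10, adjusted p = 0.122), and Dbt, a subunit of the complex that Ppm1k acts on, was at 78.7 to 82.1 CPM and 62.5 to 68.5 CPM (-0.29 ± 0.09, adjusted p = 0.158). Of 35 tested genes of fatty acid uptake and oxidation 0 passed, with a median of 0.02, of 28 genes of pyruvate entry and the TCA cycle 0 passed, with a median of -0.05, and of 27 genes of glucose uptake and glycolysis 0 passed, with a median of 0.08. Ugp2, which makes the sugar donor for glycogen, came nearest among the last, at 374, 470 and 498 CPM in CTRL and 312, 314 and 340.5 CPM in KO (-0.47 ± 0.11, adjusted p = 0.0975).

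Of 26 tested regulators of mitochondrial biogenesis and dynamics, 0 passed, 20 were below 0, and the median was -0.13 and -0.12 with the length trend removed. In 9 of the 26 the groups did not overlap with KO lower, as in 10.7% of all genes tested. Opa1, which fuses inner mitochondrial membranes, was at 340, 360 and 337 CPM in CTRL and 254.5, 285 and 291 CPM in KO (-0.32 ± 0.09, adjusted p = 0.142). Ppargc1b and Ppargc1a, co-activators of mitochondrial gene expression, gave -0.35 ± 0.12 (adjusted p = 0.212) and -0.24 ± 0.10 (adjusted p = 0.262), the fusion genes Mfn1 and Mfn2 gave -0.17 ± 0.08 (adjusted p = 0.354) and -0.18 ± 0.09 (adjusted p = 0.344), and Tfam, which packs and transcribes mitochondrial DNA, gave -0.18 ± 0.09 (adjusted p = 0.355). Rxrg, a nuclear receptor, was at 144 to 149 CPM in CTRL and 118 to 162 CPM in KO, with no difference beyond the spread.

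The cytosolic ribosomal protein genes, components of the machinery of protein synthesis, had values above 0 without any member passing. All 75 tested cytosolic ribosomal protein genes were above 0, against 51.0% of all genes tested, with a median log2 fold change of 0.39. An unadjusted p-value under 0.05 was found for 51 of them, against 16.2% of all genes tested. However, 0 passed, and DESeq2 called 6 higher, against 1.36% of all genes. With the length trend removed the median was 0.20. Relative to the CTRL mean, the mean of log2(CPM + 0.5) over this family was 0.22, -0.18 and -0.04 in CTRL and 0.63, 0.53 and 0.15 in KO, so KO replicate 3 lay below CTRL replicate 1. Rpl27, of the large subunit, was at 23.6, 17.03 and 16.6 CPM in CTRL and 34.2, 31.9 and 26.1 CPM in KO (0.68 ± 0.16, adjusted p = 0.0893). The 77 oxidative phosphorylation genes had a median of 0.15 and the 76 mitochondrial ribosomal protein genes a median of 0.11, with 0 members past the threshold, and these medians turned to -0.05 and -0.04 with the length trend removed, so no direction is given for these lists. Cox8a, a subunit of cytochrome c oxidase, was at 139, 95.3 and 105 CPM in CTRL and 210, 204 and 166 CPM in KO (0.77 ± 0.15, adjusted p = 0.0531).

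**Figure D4:**
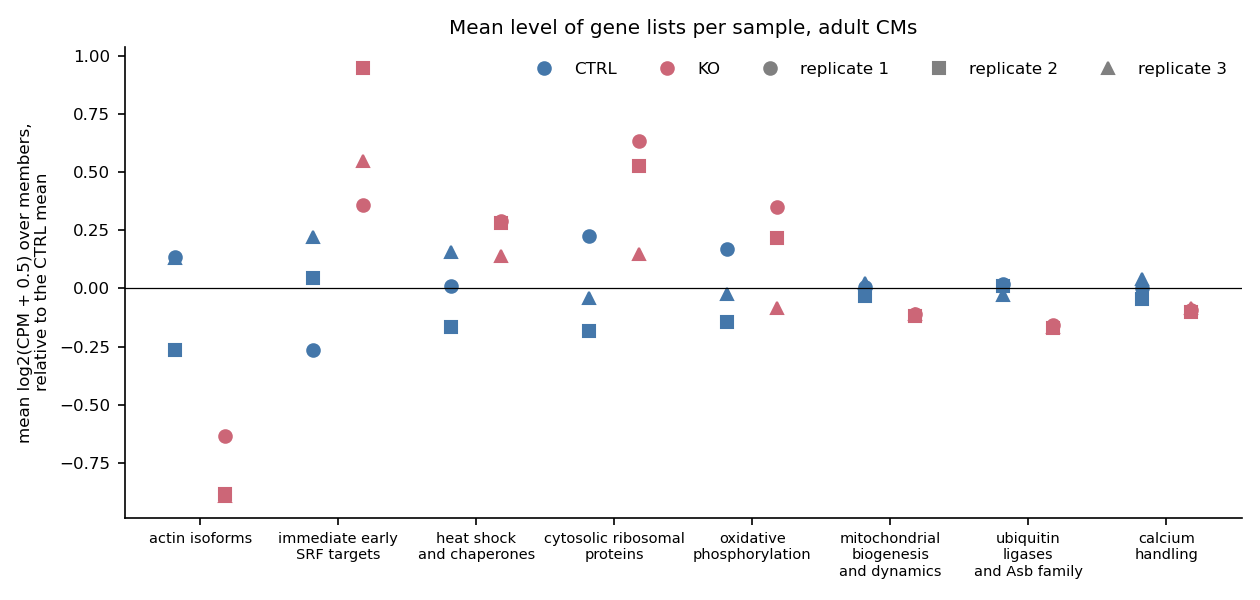
Mean of log2(CPM + 0.5) over the members of 8 gene lists (x axis) in each sample relative to the CTRL mean (y axis), with CTRL in blue, KO in red and symbols for replicates. KO replicate 3 lies within the CTRL range for chaperones (0.14), ribosomal proteins (0.15) and oxidative phosphorylation (-0.09), and in the other 5 lists the KO samples lie apart from the CTRL samples.

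The adult changes were then compared with those of neonatal KO CMs, from other animals, in which 1078 of 12546 genes (8.59%) passed, 501 higher (3.99%) and 577 lower (4.6%). Of the 28 genes that rose in the adult, 26 were also above 0 in neonatal KO and 11 passed there in the same direction (39.3% of the adult list and 2.20% of the neonatal one), among them Ntn4, Fbln1, Abra, Hsp90aa1 and Adora1. Of the 18 genes that fell, 15 were below 0 in neonatal KO and 7 passed (38.9% and 1.21%), namely Actc1, Actg1, Ckm, Kcnip2, Ppm1k, Fv1 and Kbtbd12. No gene of the 46 passed in the opposite direction. When replicate number was entered as a block, 14 of the 28 and 12 of the 18 passed, all of the earlier ones among them. The added genes that fell were Srf, Pdlim7, Stbd1, Gm14420 and Gm14403. Deviations of same-numbered neonatal KO and CTRL samples correlated at 0.132, 0.125 and 0.453. KO replicates 1 and 2 correlated slightly more with each other's CTRL number (0.136 and 0.162). Only for replicate 3 was the same number the closest, so the neonatal pairing, and the genes it added, are uncertain. The stage was tested as an interaction in a fit of all 12 samples, in which 228 of 12841 genes (1.78%) passed, 123 of them with the higher value in the adult (0.958%), and 687 passed with the block. Of the 46 genes, 3 differed between the stages by this test, and all had risen in the adult. With the block 9 differed, 7 that had risen and 2 that had fallen. In this fit the block pairs the adult samples by number as well. The adult numbers were not taken as pairs (same-number correlations 0.278, 0.0246 and 0.0856), so the genes that the block added rest on an uncertain pairing. The 46 genes were chosen for their adult change, so larger adult values among them are not an independent finding.

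Itgb1bp3 had the largest such difference, with 0.29 in neonatal KO against 2.97 in adult KO and an interaction of 2.67 ± 0.40 (adjusted p = 0.0156). Tob2 gave 0.09 in neonatal KO and an interaction of 0.79 ± 0.17 (adjusted p = 0.0411), and Klf2 gave 0.01 and 0.99 ± 0.23 (adjusted p = 0.0468). None of the 18 genes that fell differed between the stages by this test without the block, and with it Asns (-2.07 ± 0.42, adjusted p = 0.0265) and Fstl4 (-1.41 ± 0.33, adjusted p = 0.0389) did. Of the genes that rose, the block added Hspa1b with the higher value in the adult (2.67 ± 0.50, adjusted p = 0.0202) and Fbln1, 3632451O06Rik and 4930513N10Rik with the higher value in the neonate. Ckm, for example, gave -1.96 in neonatal and -0.99 in adult KO with an interaction of 0.95 ± 0.41 (adjusted p = 0.236), Kcnip2 gave -1.71 and -0.98 (interaction 0.72 ± 0.37, adjusted p = 0.311), and Actc1 gave -1.39 and -0.79 (interaction 0.59 ± 0.30, adjusted p = 0.314). Phlda1 and Apold1 were near 0 in neonatal KO, at 0.07 and -0.07, without passing the interaction test (adjusted p = 0.0995 and 0.0610). The stages also differ in the age at deletion, in the time since the virus and in the table that holds them, which cannot be told apart.

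**Figure D5:**
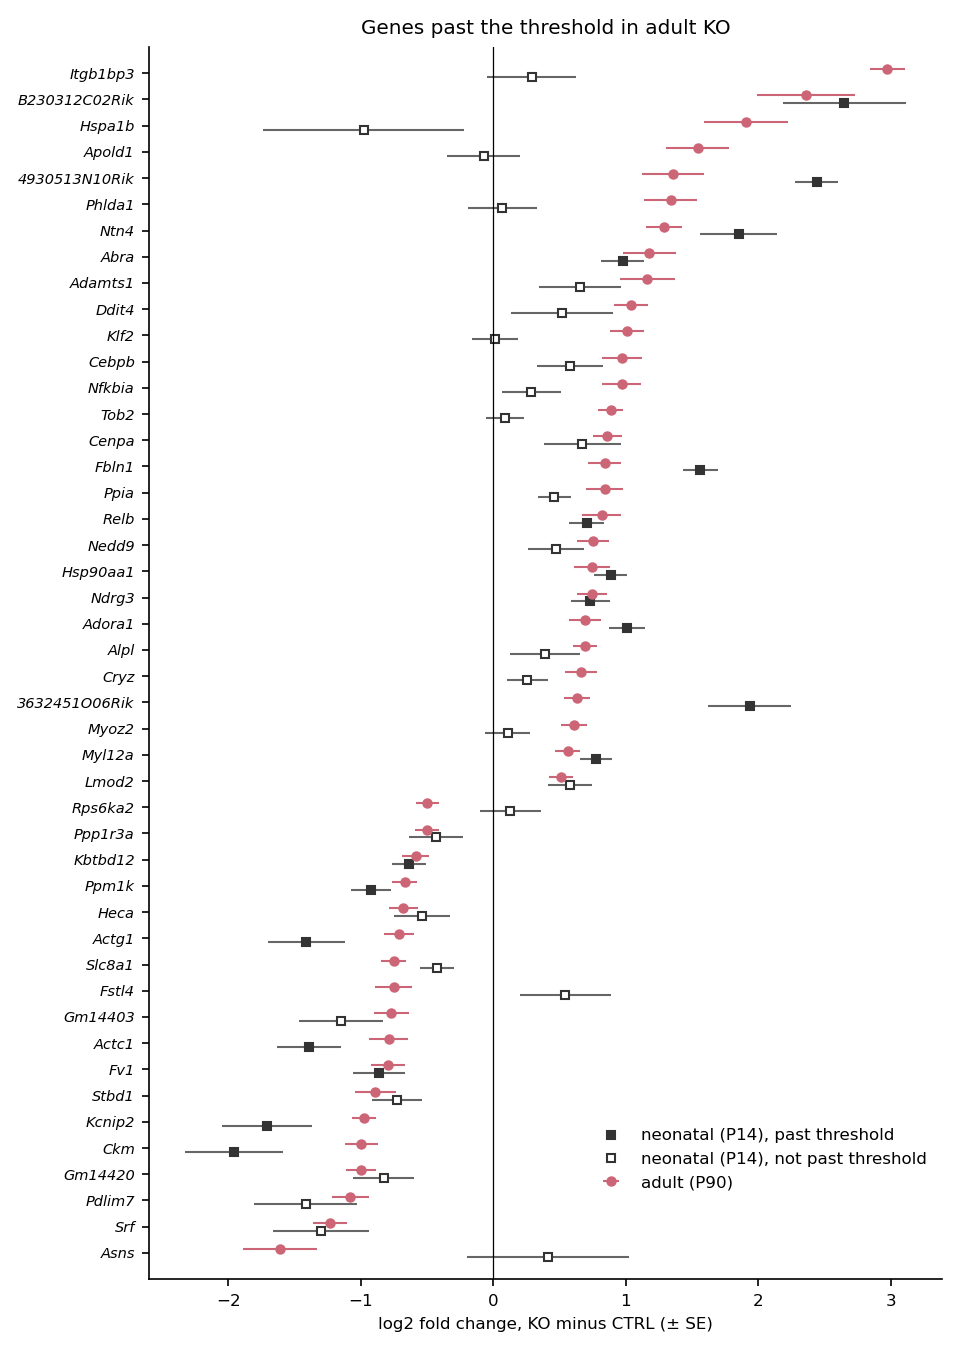
Log2 fold change (KO minus CTRL, x axis, ± SE) of the 46 genes past the threshold in adult KO (y axis), with adult values in red and neonatal values as squares, filled where the gene also passed in neonatal KO without the block. Squares lie on the adult side of 0 for 26 of the 28 genes that rose and 15 of the 18 that fell, and Itgb1bp3 is at 2.97 in the adult and 0.29 in the neonate.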

How the data were processed

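According to the labels and methods, cDNA of sorted CMs was amplified with SMART-Seq v4, made into libraries with Nextera XT and sequenced as single-end reads (NextSeq 500). The authors aligned reads to mm10 with STAR 2.5.3a and counted them per gene with featureCounts (Subread 1.5.2), and deposited raw counts in a table per stage. The submitters' notes also name CASAVA 1.8. Whether strand was used, and how reads with several matches were treated, is not given in the sources used here. The tables hold 0 genes of the mitochondrial chromosome.

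Samples were grouped by their titles. Here, counts were fitted in R 4.3.3 with edgeR 4.0.16: genes were kept by filterByExpr, libraries scaled by TMM, and KO compared with CTRL on the 6 adult samples by the quasi-likelihood F-test (Benjamini-Hochberg adjusted p under 0.05). All adjusted p-values are from this test unless DESeq2 is named. The SE is the log2 fold change divided by the square root of F. Stage was tested as an interaction over 12 samples. Deviations of same-numbered neonatal KO and CTRL samples correlated at 0.132, 0.125 and 0.453 over genes. The labels name no pairs, and the main neonatal and interaction fits left replicate number out. Fits with replicate number as a block are given beside them as alternatives. KO replicates 1 and 2 correlated slightly more with each other's CTRL number (0.136 and 0.162). CPM uses TMM-scaled library sizes, TPM the deposited exon lengths. Alternatives used DESeq2 1.42.0 (the authors' test), limma 3.58.1, other scalings and filters, a replicate block, removal of each sample's trend with exon length, and each sample left out. Fits were tested first on simulated counts that held no replicate effect and no exon length trend, so that test does not bear on these.

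Genes named are Srf, all genes past the threshold, the next 6 or fewer by p in each of 30 gene lists, genes the study names, 8 genes each way that passed by DESeq2 and with the block only, and cell type markers. Lists and members were chosen with earlier results of these data known. Reads carry no molecular identifiers, so the floor of 3 counts covers counting error only. P-values measure the spread between 3 hearts per group. Results for some genes are not reported here.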

Additional observations from a re-analysis of the deposited data

Results flagged for a closer look

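The KO effect differed between the stages, by edgeR's interaction test over all 12 samples, for 18 genes given below. Dusp5, named above for its CArG box, differed as well (1.70) and is not counted among the 18. Values are the adult minus the neonatal log2 fold change, and each adjusted p was under 0.05, without and with the replicate block. Of genes that rose in the adult, Itgb1bp3 (2.67), Klf2 (0.99) and Tob2 (0.79) had little change in neonatal KO, and they were chosen for their adult change. The other 15 genes did not pass in adult KO. Among them, mitochondrial and metabolic genes with a negative neonatal value were the nuclear receptor Rxrg (1.36) and the complex I subunit Ndufb4 (1.01). The mitochondrial ribosomal protein Mrps15 (0.78) and the valine breakdown enzyme Hibadh (0.74) were others, and troponin I, Tnni3, gave 0.85. The log2 fold change of Rxrg, for example, was -1.47 in neonatal and -0.10 in adult KO. Genes with a positive neonatal value were the Z-disc proteins Xirp2 (-1.47) and Flnc (-1.24), the myosin-binding protein Mybpc2 (-1.50), the pacemaker channel Hcn4 (-1.55), the L-type calcium channel Cacna1c (-0.85), the calcineurin regulator Rcan1 (-0.98), the ecto-nucleotidase Nt5e (-1.04), the nuclear receptor Esrrg (-0.70), the metalloproteinase Mmp23 (-2.13) and the ligand Tgfb2 (-1.72). Xirp2 gave 1.08 in neonatal and -0.38 in adult KO, and Tgfb2 gave 2.0001 and 0.29. The 18 are part of the 228 genes that passed without the block, which hold further mitochondrial and metabolic genes. The neonatal median was -0.65 for 77 oxidative phosphorylation genes (25 passed lower) and -0.66 for 28 genes of pyruvate entry and the TCA cycle (19 passed lower). In adult KO these medians were 0.15, or -0.05 with the length trend removed, and -0.05, with 0 members past the threshold. Over all genes tested, 4.6% passed lower in neonatal KO and 0.152% in adult KO. At that adult share, 0 members past the threshold does not set these lists apart.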

How the results depend on the processing

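The 46 calls in adult KO (28 higher, 18 lower) kept their direction in all 16 other fits. Their number moved to 312 (148 and 164) by DESeq2, 701 (358 and 343) with no filter on low counts, 84 (47 and 37) with the length trend removed and 3 (2 and 1) in a fit of all 12 samples, in which Srf gave -1.24 without passing (adjusted p = 0.180). Leaving out a sample gave 6 to 51 calls, 4 to 26 higher and 2 to 25 lower, the lowest without KO replicate 2. With the other 4 settings (limma voom, DESeq2 size factors, upper quartile factors and a minimum of 1 CPM) the count was 40 to 43. For Srf, the fits without a sample gave -1.34 to -1.12.

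With the replicate block the count was 655 (315 and 340), and with the block and the length trend removed 224 (123 and 101). Deviations of same-numbered adult KO and CTRL samples correlated at 0.278, 0.0246 and 0.0856 over genes, so the numbers were not taken to pair the adult samples, and KO replicates 2 and 3 correlated more with a CTRL sample of another number. The stage difference moved from 228 genes to 894 by DESeq2, 687 with the replicate block and 474 with no filter, and the neonatal count from 1078 to 1787 by DESeq2 and 1529 with the replicate block. The cause of these shifts was not tested.

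Among 228 named genes and 3647 values, 14 turned direction, none of them past the threshold. Nppa gave -0.16 with the block and the length trend removed and -0.56 (without KO replicate 1) to 0.70 with samples left out, and these ranges were -0.20 to 0.0633 for Tfb1m, -0.76 to 0.76 for Myl7, with -0.13 without CTRL replicate 1, and -0.56 to 0.99 for Myl4. With the length trend removed, without and with the block, Myl2 gave -0.0234 and -0.0204, Myl7 -0.11 and -0.18, Mkl2 0.0681 and 0.0708, and Tbx20 0.011 and 0.0094.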

Other observations

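Further groups held no gene past the threshold in the edgeR fit of adult KO other than Kbtbd12, and their values are given as a description. The ubiquitin ligase and Asb family genes had 15 of 20 below 0, with a median log2 fold change of -0.14, and in 9 of them every KO sample was under the lowest CTRL sample, as was the case for 10.7% of all genes tested. Klhl24, a kelch adaptor of ubiquitin ligases, was at 414, 486 and 391 CPM in CTRL and 264, 320 and 345 CPM in KO (-0.47 ± 0.12, adjusted p = 0.116), and Klhl31 was at 512, 452.5 and 505.5 CPM and 352, 333.5 and 419 CPM (-0.41 ± 0.11, adjusted p = 0.121). Fbxo32, the atrophy ligase atrogin-1, was not among the lower ones, at 102, 179 and 124 CPM and 153, 186 and 209 CPM (0.44 ± 0.18, adjusted p = 0.274). Of 17 TGF-beta ligand and response genes, 13 were above 0, with a median of 0.21. The inhibitors of basic helix-loop-helix factors Id3 and Id1 were higher in every KO sample, at 11.4 to 15.7 CPM in CTRL against 20.8 to 24.5 CPM in KO (adjusted p = 0.0555) and at 3.89 to 5.47 CPM against 6.14 to 12.3 CPM (adjusted p = 0.108).

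Of 18 clock genes, 0 passed and the median was 0.03. Per1, an early repressor of the clock, was at 9.02, 6.39 and 5.54 CPM in CTRL and 13.4, 10.6 and 13.1 CPM in KO (adjusted p = 0.0990), while Dbp, an output gene, ran from 4.53 to 21.1 CPM within KO and from 5.03 to 8.59 CPM within CTRL. Of 31 intercalated disc and adhesion genes, 0 passed, with a median of -0.03. Itga9 was lower (79.5 to 100 CPM in CTRL and 51.1 to 67.5 CPM in KO, adjusted p = 0.0821) and Itga7, the laminin-binding integrin of muscle, higher (386 to 512 CPM and 529 to 613 CPM, adjusted p = 0.183). Of 21 extracellular matrix genes 0 passed, with a median of 0.15, of 30 translation factors 0 passed, with a median of 0.12, and of 17 core cardiac transcription factors 0 passed, with a median of 0.08. Gata6 was at 76.9 to 84.9 CPM in CTRL and 91.4 to 108.5 CPM in KO (adjusted p = 0.145).

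Genes that missed the threshold but passed by DESeq2 and with the replicate block included, among the lower ones, Bdh1, the mitochondrial enzyme that uses and makes ketone bodies (173, 120 and 212 CPM in CTRL and 98.2, 81.0 and 85.1 CPM in KO, adjusted p = 0.0531), Gbp6, a guanylate-binding protein (32.7 to 50.6 CPM and 19.5 to 25.8 CPM, adjusted p = 0.0531), Fbxl22, a ubiquitin ligase adaptor of the sarcomere (86.7 to 153 CPM and 56.7 to 83.4 CPM, adjusted p = 0.0890), Prrg1, Pnck, Dact3, Cdh4 and Ttn. Among the higher ones were Sgk1, a kinase of salt and growth signals (14.2, 25.2 and 17.9 CPM and 28.1, 48.1 and 42.6 CPM, adjusted p = 0.0699), Etv5, an ETS factor (11.04 to 18.8 CPM and 24.6 to 35.6 CPM, adjusted p = 0.0554), Gadd45b, a stress sensor (5.90 to 14.05 CPM and 17.9 to 29.3 CPM, adjusted p = 0.103), Slc25a25, Gm12295, Rps23, Id1 and Dnajb1.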
